A study of Mus musculus with 4 samples.

Results

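T cell receptor variable gene segments were read out across the blood T cells of 4 mice, to see which segments were counted, in which cells, and whether their use differed between T cell types or after plasma treatment of the skin. The members were all gene symbols of the deposited count table that begin with Trav, Trbv, Trdv or Trgv and a digit, which gave 38 of 15093 genes: 18 Trbv (beta chain), 16 Trav (alpha chain), 3 Trdv (delta chain) and 1 Trgv (gamma chain). All 4 animals were female C57BL/6 wild-type mice aged 3.2 ± 0.3 months under ketamine and xylazine anaesthesia. In the 2 treated mice, the left ear was exposed for 10 min to non-thermal plasma (NTP, a partly ionized gas) from an argon plasma jet, and the 2 untreated mice were anaesthetized without exposure. Blood was drawn from the vena cava 120 min after exposure (treated mice) or 120 min after anaesthesia began (untreated mice). Its mononuclear cells were sequenced from the 3′ end of their transcripts, so that each mouse is 1 library and 1 replicate.

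Each T cell builds its receptor by cutting its DNA and joining a variable segment to a joining segment (with a diversity segment between them in beta and delta chains), and the joined exon is spliced to a constant gene such as Trac, Trbc1, Trbc2, Trdc or a Tcrg-C gene. Most blood T cells carry an alpha and a beta chain, a smaller class carries a gamma and a delta chain, and as a rule a cell makes a single beta chain, since joining on the other chromosome stops once a beta chain is made. The delta genes lie inside the alpha locus, and some alpha segments, with dv in their names, can serve both chains.

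The results turn on a few segments, whose last 120 bases are shown, read 5′ to 3′ along the coding strand, because this end is where the cell joins the segment and where reads that reach it from the constant gene would first tell segments apart. Capitals mark the TGT codon of the conserved second cysteine of the variable domain. Sequences and positions are those of the GENCODE vM21 annotation on the GRCm38 build (mm10), and each position spans the whole segment: Trbv20 at chr6:41188273-41188977, plus strand, Trbv12-2 at chr6:41118851-41119364, plus strand, Trbv2 at chr6:41047340-41047995, plus strand, Trgv2 at chr13:19336573-19337167, minus strand, and Trav16n at chr14:53351028-53351621, plus strand.
Trbv20: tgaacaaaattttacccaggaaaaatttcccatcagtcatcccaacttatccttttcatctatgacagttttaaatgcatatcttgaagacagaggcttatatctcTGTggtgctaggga
Trbv12-2: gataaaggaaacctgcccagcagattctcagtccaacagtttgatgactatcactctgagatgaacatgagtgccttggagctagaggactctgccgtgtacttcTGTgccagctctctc
Trbv2: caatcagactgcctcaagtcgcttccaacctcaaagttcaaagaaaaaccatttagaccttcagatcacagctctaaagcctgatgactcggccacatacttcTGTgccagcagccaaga
Trgv2: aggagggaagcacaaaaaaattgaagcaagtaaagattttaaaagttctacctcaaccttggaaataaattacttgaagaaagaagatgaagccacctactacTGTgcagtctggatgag
Trav16n: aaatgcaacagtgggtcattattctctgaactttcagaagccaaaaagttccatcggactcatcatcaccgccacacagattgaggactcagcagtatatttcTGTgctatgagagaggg

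How well a 3′ read can name a segment differed between the loci. Over 226 annotated variable segment transcripts, every 90-base window of all Trbv segments occurred in 1 segment alone, whereas on average 77.3% of the windows of the member Trav genes did, against 43.0% for the Trav genes not in the table. The table held 17 of the 22 Trbv genes and 15 of the 108 Trav genes not annotated as pseudogenes, plus the pseudogenes Trbv24 and Trav22, so that Trbv use is close to a whole-locus view and Trav use is not. The pairs below show near copies among the members, with capitals at the bases that differ from Trbv12-2 (for Trbv12-1) or from Trav16n (for Trav16 and Trav16d-dv11). Trbv12-1 (chr6:41113550-41114067, plus strand) differed at 9 of 120 bases, Trav16 (chr14:53743104-53743705, plus strand) at 3 and Trav16d-dv11 (chr14:53047287-53047821, plus strand) at 1, so counts of the Trav16 copies are uncertain where the counting could split or drop shared reads.
Trbv12-1: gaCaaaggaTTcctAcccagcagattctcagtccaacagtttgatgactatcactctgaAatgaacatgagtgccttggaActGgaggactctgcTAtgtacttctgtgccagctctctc
Trav16: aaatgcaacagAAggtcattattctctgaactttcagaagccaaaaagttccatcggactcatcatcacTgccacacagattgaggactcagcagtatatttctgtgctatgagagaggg
Trav16d-dv11: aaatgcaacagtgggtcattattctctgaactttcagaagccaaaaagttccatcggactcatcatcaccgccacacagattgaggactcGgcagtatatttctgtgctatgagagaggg

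The whole table held 5794 cells and 23692981 UMIs (unique molecular identifiers, the count of captured transcripts), with 7093148 and 6700732 UMIs in treated replicates 1 and 2 and 4653719 and 5245382 in untreated replicates 1 and 2. The deposited annotation gave 73 NK cells, 600 CD8+ T cells and 1517 CD4+ T cells, together called T cells here, beside 3604 B cells and plasmablasts, and 4 barcodes occurred in more than 1 mouse. The NK label was checked against markers of natural killer cells, which carry no rearranged receptor. All 73 annotated NK cells had a Trac, Trbc1 or Trbc2 UMI and 98.6% had a UMI of the CD3 chain gene Cd3d, which goes against the label. Of the 9 listed NK markers 8 had a UMI there: the defining genes Ncr1 and Klrb1c each in 1.37% of cells and Klra8 in none, but Klre1 in 16.4% (0% of CD8+ T cells), Eomes in 17.8% (4.0%), Klrk1 in 8.22% (1.33%), Klrd1 in 76.7% (68.0%) and Prf1 in 8.22% (7.67%). Gzma had 55 UMIs in 1 cell. Their summed level was 329 to 773 UMIs per 1000000 (CPM) in the 4 annotated NK libraries, 231 to 339 in CD8+ and 33.6 to 60.2 in CD4+ libraries, and without Gzma 329 to 530, 231 to 337 and 33.2 to 56.8. The annotated NK cells also had Ccl5, a chemokine of memory and cytotoxic T cells, at 3177 CPM, against 77.5 in CD8+ T cells and 11.9 in CD4+ T cells; the group is called annotated NK throughout. Cd4 was found in 44.0% of CD4+ T cells and Cd8b1 in 93.2% of CD8+ T cells. Most annotated NK cells also had CD8 coreceptor UMIs, with Cd8b1 in 74.0%, Cd8a in 63.0% and Cd4 in 1.37% of them. Since all 3 types come from clusters of the same cells, gene differences between them are not fully independent of how the cells were sorted into types.

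Variable segments were counted sparsely, and nearly all in T cells. The members had 873 UMIs in T cells, 80.5 CPM, against 3 UMIs in B cells and plasmablasts, 0.233 CPM, where a correction for free RNA may or may not be part of the counts. A member UMI was found in 625 of 2190 T cells (28.5%). The 519 Trbv UMIs were 2.43% of the number of Trbc1 and Trbc2 UMIs, and the 280 Trav UMIs were 6.48% of the Trac UMIs, so most receptor transcripts were seen only through their constant gene. One member, Trdv4, was listed at 0 in every cell, 18 members had at least 20 UMIs in T cells, and 14 had a UMI in all 4 mice (11 Trbv, Trav16n, Trdv2-2 and Trgv2).

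**Figure D1:**
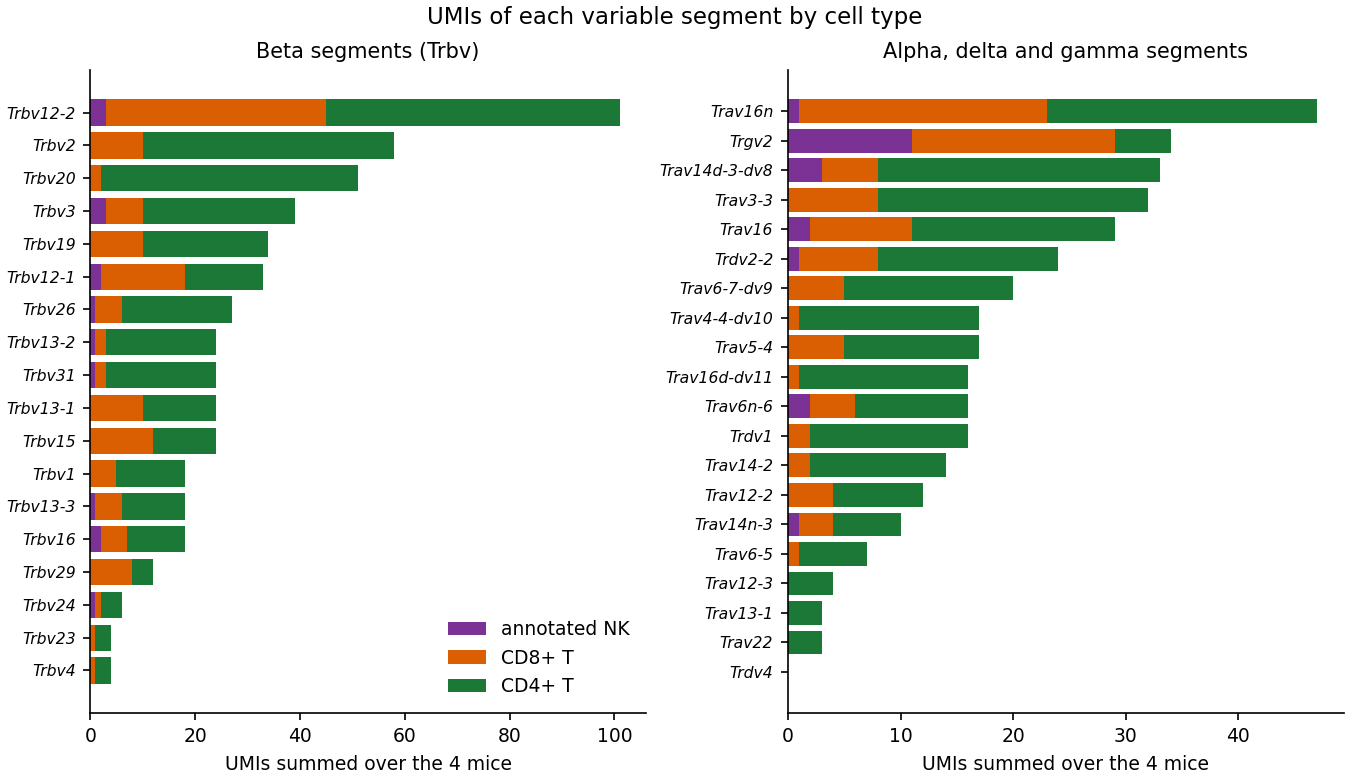
UMIs of each of the 38 variable segments (x axis) summed over the 4 mice, stacked by annotated NK, CD8+ and CD4+ T cells, with Trbv segments on the left and Trav, Trdv and Trgv segments on the right. Trbv12-2 led with 101 UMIs, Trbv20 was nearly all in CD4+ T cells, and Trgv2 was mostly outside them.

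A few beta segments led. Trbv12-2 had 101 UMIs in 94 T cells, Trbv2 had 58 in 47 cells and Trbv20 had 51 in 33 cells, and these 3 made up 24.1% of all member UMIs. The next beta segments were Trbv3 (39 UMIs), Trbv19 (34), Trbv12-1 (33), Trbv26 (27) and then Trbv13-2, Trbv31, Trbv13-1 and Trbv15 (24 each). Among alpha segments, Trav16n had 47 UMIs, Trav14d-3-dv8 had 33, Trav3-3 had 32, Trav16 had 29 and Trav6-7-dv9 had 20, followed by Trav4-4-dv10 and Trav5-4 with 17 each and Trav16d-dv11 and Trav6n-6 with 16 each. Of the other beta segments, Trbv1, Trbv13-3 and Trbv16 had 18 UMIs each, Trbv29 had 12, Trbv24 had 6 and Trbv23 and Trbv4 had 4 each. The other alpha segments had 3 (Trav13-1 and Trav22) to 14 UMIs (Trav14-2), with Trav12-2, Trav14n-3, Trav6-5 and Trav12-3 between them. These sums rank the segments only as captured, since segments differ in how many of their reads can be assigned. The plot of UMIs by segment shows the order, with a long tail of Trbv and Trav segments under 20 UMIs.

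Zeros of single members in single mice have to be read with the zeros of the whole table. Over all genes, 5544 pairs of a gene and a mouse had no cell with a UMI, yet only 577 pairs had exactly 1 such cell and 813 had exactly 2, against 1585 with 4. The sources used here do not say whether rare genes were removed mouse by mouse, so no upper limit was taken from a member's 0 in a whole mouse. Counts of genes at 0 were 929 and 1139 in treated replicates 1 and 2, against 1888 and 1588 in untreated replicates 1 and 2, and 7 members were found in treated replicate 1 alone, 2 in treated replicate 2 alone and 0 in either untreated mouse alone.

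Without an adjustment for depth, the share of cells with any Trbv UMI lay in the same range in CD8+ and CD4+ T cells. In annotated NK cells it was 0% (0 of 22 cells, upper Wilson 95% limit 14.9%) and 15.4% in treated replicates 1 and 2 and 31.6% in each untreated mouse, out of 13 to 22 cells a mouse. In CD8+ T cells the same mice, in the same order, had 21.4% and 22.0%, then 21.2% and 16.8%, and CD4+ T cells had 21.3% and 20.2%, then 23.3% and 14.7%. Among B cells, which should lack these transcripts, 0 of 3130 had one (upper Wilson 95% limit 0.123%). The CD8+ and CD4+ shares overlapped in every mouse by their Wilson 95% intervals, which cover counting error only, as the plot of shares by mouse shows. Median depth was 7114 UMIs per annotated NK cell, 5555.5 per CD8+ T cell, 4429 per CD4+ T cell and 3364 per B cell. With each cell thinned to 2000 UMIs, the mean share was 2.63 ± 3.04% in annotated NK, 7.19 ± 1.23% in CD8+ and 9.66 ± 1.355% in CD4+ T cells (SD, n = 4 mice). The thinned annotated NK share came from 1 cell in each untreated mouse and 0 in each treated mouse.

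**Figure D2:**
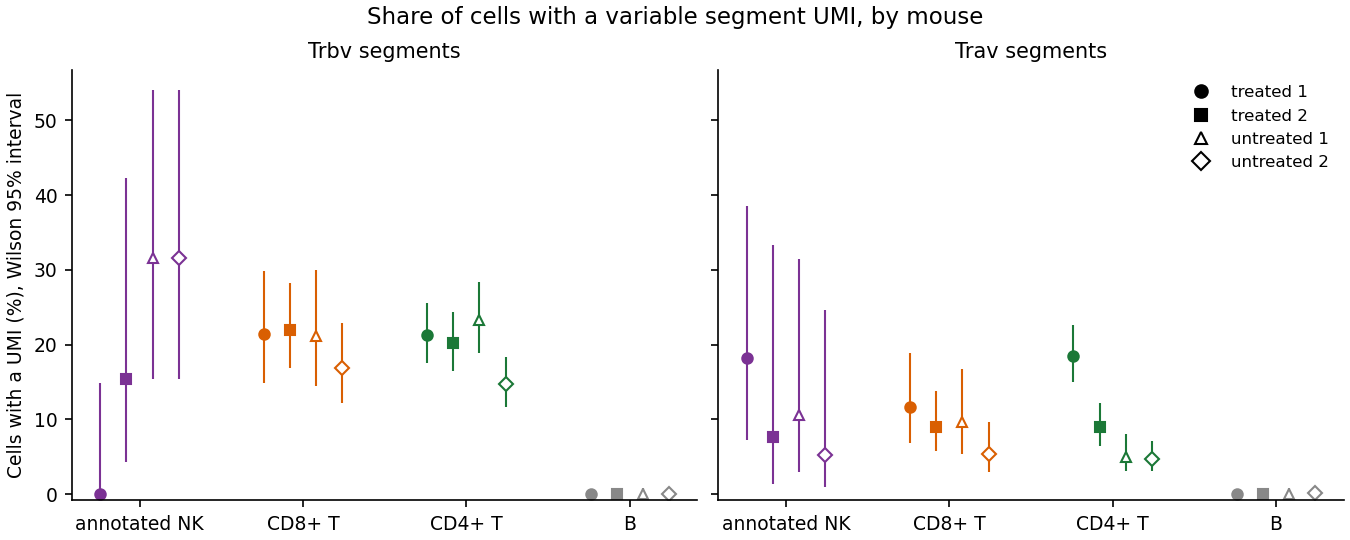
Share of cells with at least 1 Trbv UMI (left) or Trav UMI (right), in percent, for each mouse and cell type, with Wilson 95% intervals as bars; filled symbols are treated and open symbols untreated mice. Without an adjustment for depth, Trbv shares of CD8+ and CD4+ T cells lie between 14.7% and 23.3%. B cells lie at or near 0, and treated replicate 1 has the highest Trav share in CD4+ T cells, 18.5%.

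In CPM, summed Trbv was lower in CD8+ than in CD4+ T cells of every mouse. The CD8+ levels were 35.6 and 51.3 CPM (treated mice) and 40.8 and 38.6 (untreated mice), against CD4+ levels of 48.3 and 56.2 (treated mice) and 55.1 and 48.4 (untreated mice). The mean CD8+ level was 0.80 of the mean CD4+ level, and the ratios of single mice had an SD of 0.082 (n = 4 mice). Set against the constant genes instead, Trbv had 23.6 ± 4.48 UMIs per 1000 Trbc1 and Trbc2 UMIs in CD8+ and 24.9 ± 2.52 in CD4+ T cells, with a mean ratio of 0.949. In such sums over cells of a type, fewer cells that use a segment and less RNA of it per cell cannot be told apart.

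Beta segment use, the share of each segment among the Trbv UMIs of a mouse and cell type, differed most between CD8+ and CD4+ T cells for Trbv12-2, Trbv20 and Trbv2. Trbv12-2 took 30.7 ± 14.7% of Trbv UMIs in CD8+ T cells against 15.1 ± 4.94% in CD4+ T cells (SD, n = 4 mice), and was higher in CD8+ T cells in 4 of 4 mice. Trbv20 took 1.37 ± 1.77% in CD8+ T cells against 13.4 ± 6.60% in CD4+ T cells, lower in CD8+ in 4 of 4 mice. Trbv2 took 6.81 ± 2.20% in CD8+ T cells against 13.8 ± 6.11% in CD4+ T cells, lower in CD8+ in 3 of 4 mice. The near copy Trbv12-1 leaned the same way as Trbv12-2, with 10.4 ± 2.80% in CD8+ T cells against 4.18 ± 0.358% in CD4+ T cells and a higher share in CD8+ in 4 of 4 mice. Trbv13-2 took 1.47 ± 2.94% in CD8+ against 5.85 ± 1.23% in CD4+ T cells, lower in CD8+ in 4 of 4 mice. Trbv31 took 1.47 ± 2.94% against 5.94 ± 2.39%, lower in CD8+ in 3 of 4 mice. Trbv15 (7.20% against 3.20%) and Trbv13-1 (7.37% against 3.83%) were higher in CD8+ in 3 of 4 mice, with larger SDs. Most other segments lay within the spread between mice, such as Trbv19 with 6.18% in CD8+ T cells against 6.72% in CD4+ T cells and Trbv1 with 3.27% and 3.63%. Among alpha segments, Trav16n took 32.1 ± 18.6% of the Trav UMIs in CD8+ T cells against 13.8 ± 13.4% in CD4+ T cells, higher in CD8+ in 3 of 4 mice, and Trav14d-3-dv8 took 6.44 ± 8.05% in CD8+ T cells against 14.6 ± 13.1% in CD4+ T cells. Their SDs are as large as the differences or nearly so, and in the edgeR test neither passed (adjusted p = 0.374 for Trav16n and 0.66 for Trav14d-3-dv8).

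**Figure D3:**
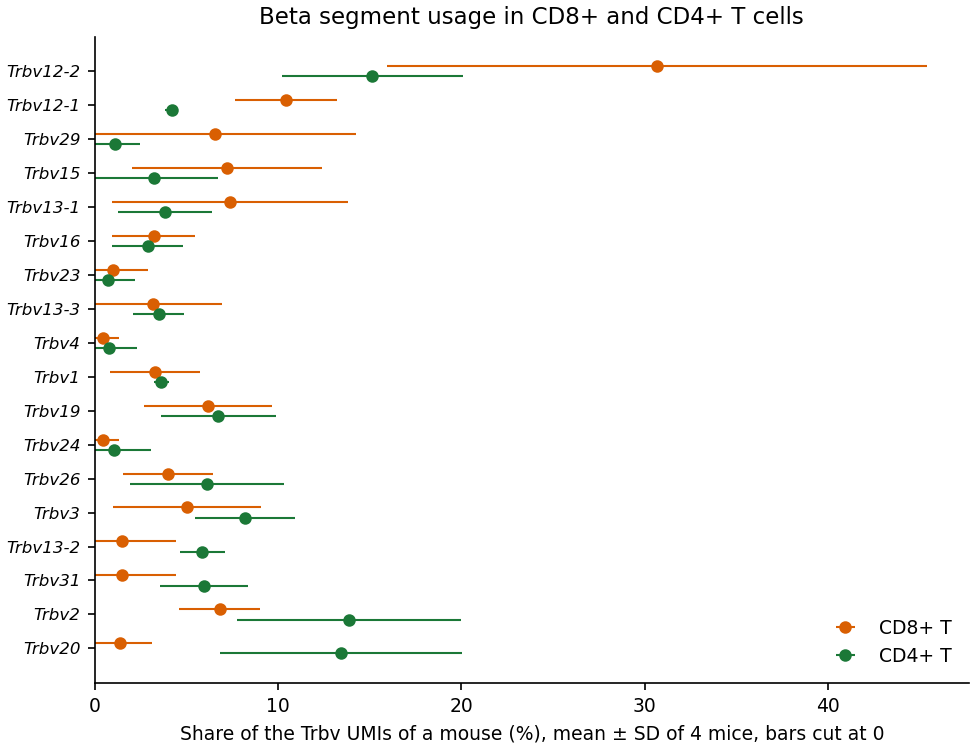
Share of each Trbv segment among the Trbv UMIs of a mouse (x axis, percent), as mean and SD of 4 mice, for CD8+ and CD4+ T cells, ordered by the difference between them. Trbv12-2 stands at 30.7% in CD8+ against 15.1% in CD4+ T cells, and Trbv20 at 1.37% against 13.4%, while most segments have bars that overlap.

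The counts summed per mouse and type were then tested with edgeR's quasi-likelihood test with the mouse as a block, with the Benjamini-Hochberg correction taken across every gene in the fit. With the usual filter on low counts no member was kept, among 7169 genes of which 13.7% were called between CD8+ and CD4+ T cells at an adjusted p under 0.05. With all genes kept, 37 members were tested and 2 were called, against 6.99% of 14458 genes, so the share of members called was near that of all genes. Of the 37 members 12 were higher and 25 lower in CD8+ T cells, with a median log2 fold change of −0.34 beside −0.04 over all genes.

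The called beta segment was Trbv20. Its CD8+ levels were 0 and 0.900 CPM (treated mice) and 1.51 and 0 CPM (untreated mice), from 2 UMIs in all, against CD4+ levels of 10.4 and 3.44 CPM (treated mice) and 8.42 and 5.16 CPM (untreated mice), from 49 UMIs. The 4 CD4+ libraries were all above the 4 CD8+ libraries. The log2 fold change, CD8+ over CD4+, was −3.07 (SE 0.78, adjusted p = 0.00205, edgeR). This call was lost with DESeq2 (−3.36, adjusted p = 0.146) and without treated replicate 1 (−2.51, edgeR adjusted p = 0.119), the mouse with 22 of the 49 UMIs. The call held where T cells were split by their Cd4, Cd8a and Cd8b1 UMIs in place of the annotation (−3.32, edgeR adjusted p = 0.0041). That split left out cells with neither or both kinds of UMI, among them 770 of the 1517 CD4+ T cells with neither. Its CD8 side took in 56 annotated NK cells and 80 annotated CD4+ T cells. In annotated NK cells Trbv20 had no UMI in any mouse, and its level by cluster was 0.598 CPM in the CD8+ cluster and 5.98 to 9.83 CPM in the 4 CD4+ clusters.

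**Figure D4:**
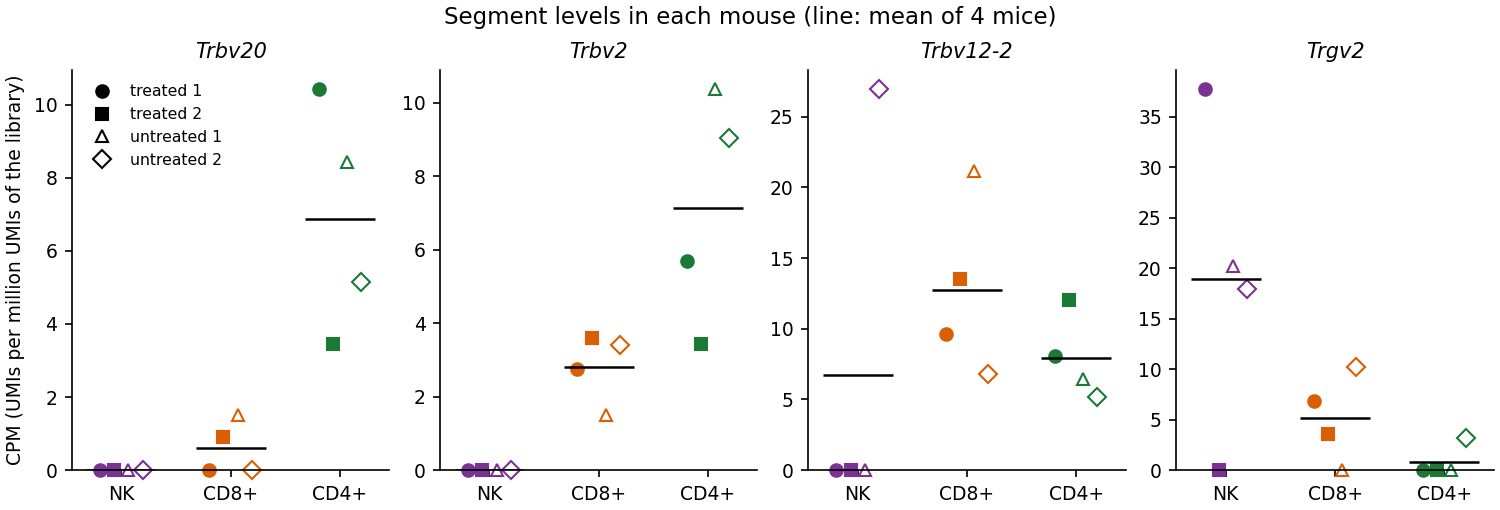
Levels of Trbv20, Trbv2, Trbv12-2 and Trgv2 (y axis, CPM) in annotated NK, CD8+ and CD4+ T cells of each mouse, with filled symbols for treated and open symbols for untreated mice and a line at the mean of 4 mice. All CD4+ values of Trbv20 lie above its CD8+ values, and Trgv2 is at 0 in 3 of 4 CD4+ libraries.

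Trbv12-2 and Trbv2 did not pass the test between the types. Trbv12-2 had 9.60 and 13.5 CPM in CD8+ T cells of the treated and 21.2 and 6.82 CPM of the untreated mice, against 8.05 and 12.04 CPM in CD4+ T cells of the treated and 6.48 and 5.16 CPM of the untreated mice. Its ranges overlapped, with a log2 fold change of 0.70 (SE 0.34, edgeR adjusted p = 0.301). Trbv2 had 2.74 and 3.601, then 1.51 and 3.41 CPM in CD8+ T cells of the same mice, against 5.68 and 3.44, then 10.4 and 9.03 CPM in CD4+ T cells, and again the ranges overlapped (−1.07, SE 0.54, edgeR adjusted p = 0.323). Trbv13-2 and Trbv31, each with 2 UMIs in CD8+ and 21 in CD4+ T cells, had log2 fold changes of −2.17 and −2.09 (edgeR adjusted p = 0.279 and 0.313). Trbv13-2, Trbv29 and Trbv1 are known as beta partners of the invariant alpha chain of NKT cells, and only counts of 0 to 1 UMI of each were found in annotated NK cells. The alpha segments that mark invariant NKT cells (Trav11) and MAIT cells (Trav1) had no entry in the count table, so they could not be read out here.

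The gamma segment Trgv2 was the other called member. Its levels in annotated NK cells were 37.7 and 0 CPM (treated mice) and 20.2 and 18.0 CPM (untreated mice). In CD8+ T cells of the same mice they were 6.85 and 3.601, then 0 and 10.2 CPM, and in CD4+ T cells 0 and 0, then 0 and 3.22 CPM. Mean levels were highest in annotated NK libraries and lowest in CD4+ libraries, and the ranges of all 3 types overlapped. The log2 fold change was 4.74 for annotated NK over CD4+ T cells (SE 0.90, edgeR adjusted p = 1.02e-05), and 2.79 for CD8+ over CD4+ T cells (SE 0.76, edgeR adjusted p = 0.00539). For annotated NK over CD8+ T cells it was 1.94 (SE 0.76, edgeR adjusted p = 0.245), so that this step of the order was not resolved. It was the 1 member called of 37 between annotated NK and CD4+ T cells, where 5.38% of all genes kept and 10% of filtered genes were called. No member of 37 was called between annotated NK and CD8+ T cells, where 1.66% of all genes kept and 3.46% of filtered genes were, and 1 member had an unadjusted p under 0.05. Without treated replicate 1 the call against CD4+ T cells was lost for annotated NK (3.74, edgeR adjusted p = 0.0646) and for CD8+ T cells (2.19, edgeR adjusted p = 0.186). The CD8+ call was also lost without treated replicate 2 (2.50, edgeR adjusted p = 0.0596), with DESeq2 (3.28, adjusted p = 0.0563) and with the coreceptor split (4.01, edgeR adjusted p = 0.279). Of the 20 cells with Trgv2, 0 had a Cd4 UMI and 6 a CD8 UMI, so that split left out most of them and cannot check this call.

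The 34 Trgv2 UMIs came from 20 cells (7 annotated NK, 11 CD8+ and 2 CD4+), and these cells differed from other T cells in their constant genes. Treated replicates 1 and 2 held 7 and 2 of these cells, and untreated replicates 1 and 2 held 2 and 9. Such shares of cells, here and below, pool the mice, so their Wilson intervals cover counting error only and no spread between mice. Trdc, the delta constant gene, had a UMI in 14 of the 20 (70.0%, Wilson 95% interval 48.1 to 85.5%), against 46 of the 2170 other T cells (2.12%). Tcrg-C4 was found in 9 (45%) against 2 (0.0922%), Tcrg-C2 in 8 (40.0%) against 6 (0.276%), and Tcrg-C1 in 4 (20%) against 2. Of all 14 T cells with Tcrg-C2, 8 had Trgv2, and of 11 with Tcrg-C4, 9 had it. The alpha constant gene Trac went the other way, with 8 of 20 (40.0%, 21.9 to 61.3%) against 1669 of 2170 (76.9%). The types differed in this: a Trdc UMI was found in 3 of the 7 annotated NK cells, 10 of the 11 CD8+ cells and 1 of the 2 CD4+ cells with Trgv2, and a Trac UMI in 5, 2 and 1 of them. The pooled Trdc share thus rests mostly on the CD8+ cells, and 6 of the 20 cells had Trac and no Trdc UMI.

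Of the 20 cells, 18 had a Trdc or Tcrg-C UMI, and 12 of these had no Trac UMI. Cd4 was found in 0 of 20 against 672 of 2170 (31.0%), and Cd8b1 in 6 (30.0%) against 723 (33.3%). The beta constant gene Trbc1 did not separate the cells, with 14 of 20 (70.0%) against 60.3%. Depth was similar, with a median of 5141 UMIs in the Trgv2 cells and 4841 over all T cells, and Trdc was found in 0.128% of B cells. Cells that carried Trgv2 were thus spread over 3 annotated types, none of which the annotation names for gamma delta T cells. The last 120 bases of Trgv2 were identical to those of Tcrg-V1 at 115 positions, and reads of these copies may have been split or dropped.

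**Figure D5:**
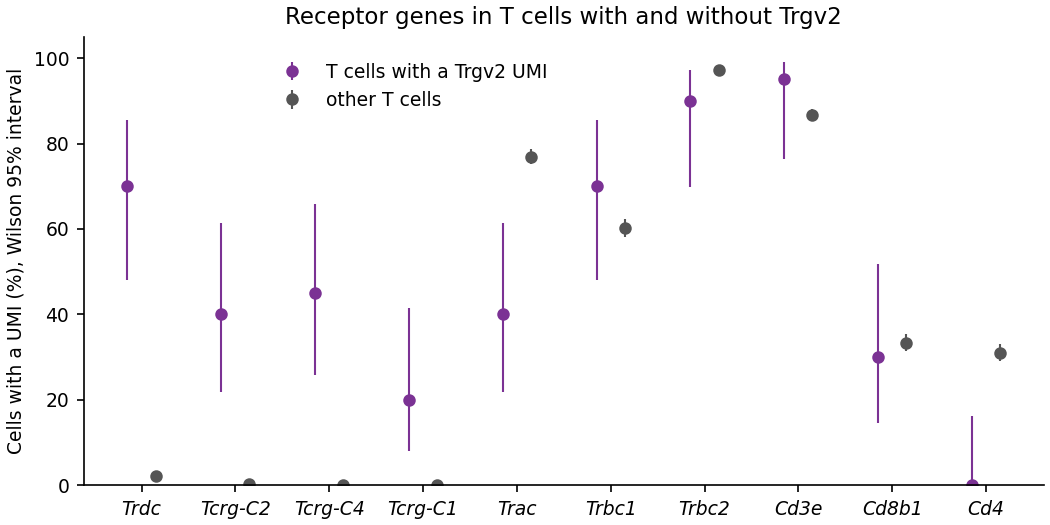
Share of cells with a UMI (y axis, percent) of receptor and coreceptor genes in the 20 T cells with a Trgv2 UMI and in the 2170 other T cells, with Wilson 95% intervals as bars. Trdc is at 70.0% against 2.12% and the 3 Tcrg-C genes at 20% to 45% against under 0.3%, while Trac is at 40.0% against 76.9% and Cd4 at 0 against 31.0%.

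By cluster, Trgv2 had 21.1 CPM (exact Poisson 95% interval 10.5 to 37.7) in cluster 11, which holds the annotated NK cells, 5.38 CPM in the CD8+ cluster 4, and 7.88 CPM in CD4+ cluster 8. That CD4+ level came from 5 UMIs in 2 cells of untreated replicate 2. Cluster 8 was also the cluster with most UMIs of Foxp3, the master factor of regulatory T cells (81 UMIs in 48 of 138 cells). The CD4+ clusters 7, 5 and 3 had no Trgv2 UMI, with upper limits of 5.18, 1.62 and 1.10 CPM. Summed Trbv, by contrast, was found in every cluster, at 30.6 CPM in cluster 11, 42.7 in cluster 4, and 53.6, 57.6, 57.0 and 46.3 in clusters 8, 7, 5 and 3.

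The delta segments differed among themselves. Trdv2-2 had 24 UMIs in 22 T cells of all 4 mice, of which 14 (63.6%) had a Trac UMI and 5 (22.7%, Wilson 95% interval 10.1 to 43.4%) a Trdc UMI, against 76.6% and 2.74% over all T cells. A Tcrg-C UMI was found in 3 of the 22 (13.6%) against 1.10% of all T cells, and a Trgv2 UMI in 2 (9.09%) against 0.913%, so Trdv2-2 leaned the same way as Trgv2, on few cells. Trdv1 had 16 UMIs in 12 cells of the treated mice alone, of which 10 had a Trac UMI and 1 a Trdc UMI. The alpha segments with dv in their names were found in 57 cells, 49 with Trac and 0 with Trdc. In each of these sets more cells had a UMI of the alpha than of the delta constant gene.

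The number of beta segments per cell could be judged in few cells, since 357 of the 431 T cells with a Trbv UMI had a single one. Of the 74 with at least 2 Trbv UMIs, 56 had 1 segment and 18 had 2 (24.3%, Wilson 95% interval 15.98 to 35.2%), and none had more. Of the 18, 11 included Trbv12-2 and 15 had just 1 UMI of each segment, and their median depth was 5051.5 UMIs against 5162 for all cells with 1 segment. Among 46 T cells with at least 2 Trav UMIs, 15 had 2 Trav segments (32.6%, 20.9 to 47.0%). Alpha and beta segments were seen together in 47 cells, in 51 combinations, the most frequent of which (6 of them) were in 2 cells each. A Trav UMI was found in 10.9% of T cells with Trbv and in 8.81% of those without.

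The treatment comparison asked whether receptor use in blood differed between treated mice, 120 min after exposure, and untreated mice, 120 min after anaesthesia began. Summed Trbv in CD4+ T cells was 48.3 and 56.2 CPM in the treated against 55.1 and 48.4 CPM in the untreated mice, and in CD8+ T cells 35.6 and 51.3 against 40.8 and 38.6 CPM, with overlap in both types. In CD4+ T cells 3 members passed the filter and none was called, nor was any of the 8680 genes (0%) by edgeR or by DESeq2, with 416 genes at an unadjusted p under 0.05. Trbv2 had 5.68 and 3.44 CPM in the treated against 10.4 and 9.03 CPM in the untreated mice, without overlap, and a log2 fold change of −1.001 (SE 0.44, edgeR adjusted p = 0.903). Trbv12-2 had 8.05 and 12.04 against 6.48 and 5.16 CPM, also without overlap (0.81, SE 0.43, edgeR adjusted p = 0.903), and Trbv20 overlapped (0.13, SE 0.54, edgeR adjusted p = 0.984). With 2 mice a group, values without overlap arise often by chance, and their share over all genes was not counted. In CD8+ T cells Trbv12-2 alone passed the filter (−0.05, SE 0.53, edgeR adjusted p = 0.992), where 0.0294% of 6798 genes were called. The difference between the treatment effects in CD8+ and CD4+ T cells was called for none of 3 members tested, where 0.0114% of 8735 genes were.

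Summed Trav was higher in CD4+ T cells of both treated mice than of the untreated mice, a difference that was not tested. Its level was 54.5 and 27.5 CPM in CD4+ T cells of the treated against 10.4 and 14.2 CPM of the untreated mice, whereas in CD8+ T cells it was 23.3 and 19.8 against 27.2 and 14.8 CPM. Over all cells of a mouse, the number of Trav segments with any UMI was 16 and 9 in the treated against 4 and 5 in the untreated mice. Trbv segments with any UMI were also fewer in the untreated mice, 12 and 14 against 16 and 16 in the treated. Trav16n, the 1 alpha segment found in all 4 mice, had 4.74 and 4.01 CPM in CD4+ T cells of the treated against 0 and 4.51 CPM of the untreated mice, and the other 15 were each listed at 0 in at least 1 mouse. The part of these zeros in the difference was not tested. Trav14-2 (14 UMIs in 8 cells) and Trav16d-dv11 (16 UMIs in 5 cells, up to 5 in a cell) were found in treated replicate 1 alone, and Trav4-4-dv10 had 9 and 8 UMIs in the treated against 0 and 0 in the untreated mice. With all genes kept no member was called in any of the 3 treatment fits. Of 37 members in CD4+ T cells 8 had an unadjusted edgeR p under 0.05, beside 4.95% of all genes (0.0776% called). In CD8+ T cells 0 of 34 had such a p (0.0817% of genes called), and in the difference of effects 1 of 37 did (0.0139% called). Of the 8 in CD4+ T cells, Trav16d-dv11, Trav14-2, Trav4-4-dv10, Trav12-2 and Trdv1 were listed at 0 in both untreated mice. Trav14d-3-dv8 and Trav3-3 were listed at 0 in untreated replicate 2, so only Trbv2 had a UMI in all 4 mice. The part of such zeros in the number of low p-values was not tested.

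The other genes of the receptor machinery were tested in the same fits, with the low-count filter. Of 18 listed genes (constant genes, CD3 chains, rearrangement and assembly factors) 15 were in the table and 10 passed the filter. Between CD8+ and CD4+ T cells, where 13.7% of genes were called, 2 rose, Trdc (log2 fold change 1.91, edgeR adjusted p = 2.83e-09) and Cd3d (0.28, edgeR adjusted p = 0.000185), and 3 fell, Trac by 0.54, the CD3 zeta chain gene Cd247 by 0.52 and Trbc2 by 0.17 on the log2 scale. Between annotated NK and CD4+ T cells, where 10% of genes were called, 2 rose, Trdc (2.97) and Cd3d (0.44), and 2 fell, Cd247 by 1.01 and Trbc2 by 0.25. Between annotated NK and CD8+ T cells, where 3.46% of genes were called, Trac rose (0.62, edgeR adjusted p = 0.000255) and Cd247 fell by 0.49. None of the 10 was called between treated and untreated mice in CD4+ or CD8+ T cells.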

How the data were processed

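Blood mononuclear cells of 2 treated and 2 untreated mice were analysed by 10x 3′ single-cell RNA sequencing. According to the methods and the submitters' processing notes, the authors counted UMIs against mm10 with Cell Ranger 7.1.0, used SoupX against free RNA, removed cells by feature and mitochondrial limits and by DoubletFinder, and clustered with Seurat 4.3.0. UMI counts were used as the authors deposited them, in whole numbers, with their annotation of type and cluster; whether the SoupX correction is part of them could not be told. The UMI sum of all 5794 cells equalled the deposited total. Counts were summed per mouse and type and tested with edgeR 4.0.16 (quasi-likelihood, TMM, minimum count 10, Benjamini-Hochberg, threshold 0.05), with limma 3.58.1 and DESeq2 1.42.0 in R 4.3.3. The test was checked on simulated data with the low-count filter on. That check does not cover the fits with all genes kept. Contrasts of types used 12 libraries with the mouse as a block. Because no member passed the filter there, these rest on all genes kept. CPM are UMIs per 1000000 of a library. The authors' deposited table of cells also gives the percentage of mitochondrial UMIs. Named were members passing a filter, the 10 leading Trbv and Trav, all Trdv and Trgv, those of invariant T cells, and the 5 largest differences in use (with at least 20 UMIs). Members and lists were chosen with earlier results of these data known.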

Additional observations from a re-analysis of the deposited data

Results flagged for a closer look

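Of 17 groups of 4 libraries examined, 2 had a library far from the others by Dixon's test, which chance flags in about 1 of 20 groups of normally distributed values. That rate does not hold for sparse counts. A segment counted in 1 of 4 libraries alone is always flagged, as Trgv2 was here. Trgv2 in CD4+ T cells had 3.22 CPM in untreated replicate 2, from 5 UMIs in 2 cells of cluster 8, and 0 in both treated mice and in untreated replicate 1. Trav16n in CD4+ T cells was at 0 CPM in untreated replicate 1, against 4.74 and 4.01 CPM in the treated mice and 4.51 CPM in untreated replicate 2.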

How the results depend on the processing

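With the low-count filter no member was tested between the cell types, and with no filter the members called were 2 between CD8+ and CD4+ T cells and 1 between annotated NK and CD4+ T cells. With the filter and 1 mouse left out, each of these counts ran from 0 to 1, since Trgv2 alone passed the filter without treated replicate 2 (CD8+ over CD4+ 2.53, edgeR adjusted p = 0.0369). It passed through the annotated NK libraries, where it is high, so this call is no support for the others. With all genes kept, the CD8+ against CD4+ count was 0 with DESeq2, 1 with the coreceptor split and 0 to 2 with 1 mouse left out, and the annotated NK against CD4+ count 0 to 1. The coreceptor split left out most cells with Trgv2, so it is no check of that segment. Over 10 alternatives Trbv20 between CD8+ and CD4+ T cells ran from −3.68 to −2.51 (edgeR or DESeq2 adjusted p 0.000534 to 0.146). No call changed in a fit without the mouse as a block (no replicate block). With 1 mouse left out, where the lone mouse of its group is assumed to vary like the others, the uncalled treatment differences changed sign for Trbv20 in CD4+ T cells (−0.89 to 0.65), for Trbv12-2 in CD8+ T cells (−0.74 to 0.90) and for Trbv20 in the difference of effects (−3.64 to 2.56).

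Thinned to 2000 UMIs a cell, shares of cells with a Trbv UMI fell to 2.63%, 7.19% and 9.66% in annotated NK, CD8+ and CD4+ T cells, and Trav shares to 1.32%, 3.77% and 4.56%. The annotated NK shares rest on 1 Trbv cell in each untreated mouse and 1 Trav cell in untreated replicate 2. With only the members found in all 4 mice, the Trbv share was 15.8% in CD8+ T cells, the Trbv level 30.9 CPM in CD8+ and 44.9 CPM in CD4+ T cells, the Trav share 1.14%, 2.72% and 1.18% and the Trav level 1.57, 6.65 and 3.32 CPM in annotated NK, CD8+ and CD4+ T cells. Per 1000 constant region UMIs the CD8+ to CD4+ ratio of Trbv was 0.949. Genes called with the filter by DESeq2 numbered 626 against 985 by edgeR between CD8+ and CD4+ T cells, and the share called higher was 73.8% against 60.1% between annotated NK and CD8+ and 68.7% against 57.4% between annotated NK and CD4+ T cells. In the treatment fits edgeR called 11 genes with no filter in each T cell type, against 0 with it in CD4+ and 2 in CD8+ T cells, where DESeq2 called 0. The cause of these shifts was not tested, and few UMIs per segment and 2 mice a group limit all member results.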
